A study of Rattus norvegicus with 12 samples.

Results

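The genes described here encode subunits of the voltage-gated calcium channels. They are 10 rows of the deposited rat gene table, chosen by gene symbol and not by any measured value: Cacna1c, Cacna1d, Cacna1g, Cacna1h, Cacna2d1, Cacna2d2, Cacna2d3, Cacnb1, Cacnb2 and Cacng6. All 10 were present with reads, of 32623 genes in the table. The samples are hearts of Sprague Dawley rats, all male, with an age of 5 weeks and a weight of 130 to 150 g on the labels. RNA was sequenced in 12 libraries, 4 for each of 3 groups. Chrysin rats and SU_HX rats shared the same disease model. Both received SU-5416, a blocker of VEGF receptors, under the skin at 20 mg/kg. Both were housed at 10% oxygen for 3 weeks and in normoxia for 2 weeks, in an order that the labels leave ambiguous. For the last 3 weeks, in normoxia, Chrysin rats were dosed daily with 100 mg/kg of chrysin, which is a flavonoid from plants, and SU_HX rats with vehicle. CTRL rats stayed in normoxia for 8 weeks, and the labels name neither SU-5416 nor vehicle for them. SU-5416 with hypoxia is a model of pulmonary hypertension that loads the right side of the heart, but the labels say only heart and not which chamber was sampled. Libraries are numbered here as rats 1 to 4 of their group. Since no label states that every library came from its own animal, p-values here reflect only how far these libraries spread.

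A voltage-gated calcium channel opens when the membrane depolarises and lets calcium into the cell. Its α1 subunit forms the pore. L-type pores carry a long-lasting current that triggers calcium release and contraction in working heart muscle, whereas T-type pores open briefly at more negative voltages and are known for pacemaking in the adult heart and for their presence in fetal ventricle. The α2δ and β subunits bring the pore to the membrane and tune its gating, and γ subunits are auxiliary membrane proteins that modulate some channels. Transcript level was measured here, not current or protein.

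Total counts per library were 3997306 to 6009798 in Chrysin, 4036489 to 5797763 in SU_HX and 4712077 to 5443100 in CTRL. Levels are given in CPM (counts over the TMM-scaled size of the library) and as CPM per kilobase (kb) of exon where genes are compared with each other. SU_HX rat 1 stood apart from the rest, with 63.4% of its unique reads in introns, where the other 11 libraries had 42.6% to 50%. The library of Chrysin rat 3 had the smallest total count and lay near CTRL in Cacna1g and in the T-type share given below. It also lay near CTRL in markers outside the channel genes, such as the myosin gene Myh6, at 35113 CPM, where the other Chrysin rats had 3447 to 4550 CPM and the CTRL rats 37557 to 43227 CPM. Of the 10 members, 8 passed the filter on low counts. Cacna2d3 and Cacnb1 did not, and Cacng6 passed only through the CTRL rats. The unique share of exon reads was 99.8% in Cacna2d1 and 100% in the other members. Tpsg1, which overlaps Cacna1h, had 3 counts in all 12 libraries together, and the other genes that overlap members had 0. Whether reads were counted by strand is not stated.

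The start regions of the 2 members that fell in SU_HX and have a RefSeq promoter entry are shown because they differ in base composition. Each runs from 250 bases before to 50 bases after the annotated start, 5′ to 3′ on the gene's minus strand, in build GRCr8. Capitals mark CG dinucleotides.
Cacna1c, chr4:154051699-154051998: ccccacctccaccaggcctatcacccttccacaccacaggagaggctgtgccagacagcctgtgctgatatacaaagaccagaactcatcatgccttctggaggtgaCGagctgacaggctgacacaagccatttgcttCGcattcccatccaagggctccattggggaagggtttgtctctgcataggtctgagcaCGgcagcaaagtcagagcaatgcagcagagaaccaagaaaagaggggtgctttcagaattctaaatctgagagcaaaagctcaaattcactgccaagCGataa
Cacng6, chr1:74662704-74663003: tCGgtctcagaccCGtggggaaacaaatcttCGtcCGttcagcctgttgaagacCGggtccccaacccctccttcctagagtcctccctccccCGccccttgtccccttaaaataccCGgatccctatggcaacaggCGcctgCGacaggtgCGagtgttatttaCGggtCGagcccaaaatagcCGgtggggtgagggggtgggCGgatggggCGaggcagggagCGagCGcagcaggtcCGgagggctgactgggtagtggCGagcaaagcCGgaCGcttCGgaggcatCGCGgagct
The Cacng6 region holds 24 CG dinucleotides and 63.7% G+C, and 18% of the 33469 promoters in the RefSeq table hold as many. The Cacna1c region holds 4 CG dinucleotides and 51.7% G+C, and 69.3% of promoters hold as many. The median promoter holds 7. The letters GGGCGG, searched on both strands, occur 2 times in the Cacng6 region and 0 times in the Cacna1c region, and 33.1% of all promoters hold them at least once. Promoter entries were matched for 7 of the 10 members. Those of Cacna1d, Cacna2d1, Cacna2d2 and Cacna2d3 hold 36 to 66 CG dinucleotides, all more than Cacng6. Those of Cacnb2 hold 37 and 6. No methylation or binding was measured, nor whether these annotated starts are the ones used in these hearts.

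In SU_HX hearts the L-type pore gene Cacna1c and the γ subunit gene Cacng6 fell, and the T-type pore gene Cacna1g rose. Calls were made with edgeR's quasi-likelihood F test across all genes at a Benjamini-Hochberg adjusted p under 0.05. In this comparison 30.7% of the 12304 genes tested were called, 16% higher and 14.7% lower. The members' count, 3 of 8, is near that background, and 1 of the 3 is Cacng6, which had entered through CTRL alone. The values of SU_HX and CTRL rats did not overlap in 4 of 8 members, against 32.6% of all genes tested. The median log2 fold change was -0.43 over the members tested and 0.07 over all genes tested.

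Cacna1c encodes the main pore of the L-type channel of ventricular muscle. Its gene lies on chromosome 4 at 150641066 to 150829913 in the files' annotation, whose build is not given in the sources used here, with 51 exons. Chrysin rats 1 to 4 had 287, 240, 301 and 149 CPM, SU_HX rats had 222, 248, 151 and 194 CPM, and CTRL rats had 450, 406, 382 and 445.5 CPM. Each Chrysin and SU_HX rat lay below each CTRL rat, and the Chrysin and SU_HX ranges overlapped. In SU_HX against CTRL the log2 fold change was -1.05 (SE 0.23, edgeR adjusted p = 0.00506), a level 2.07-fold lower. The call held in all 23 alternatives, with log2 fold changes of -1.16 to -0.93. In a bulk heart sample, fewer cells of a type and less RNA per cell cannot be told apart.

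Cacna1d encodes the other L-type pore of the heart, known mainly from the sinoatrial node and the atria. Chrysin rats had 3.46, 3.47, 1.65 and 1.27 CPM, SU_HX rats had 6.49, 2.66, 1.29 and 1.62 CPM, and CTRL rats had 5.77, 3.07, 4.93 and 4.66 CPM. The groups overlapped, and SU_HX rat 1 was the highest of the 12. The log2 fold change of SU_HX minus CTRL was -0.62 (SE 0.47, edgeR adjusted p = 0.341). Without SU_HX rat 1, the library with the high intron share, it was -1.27 (edgeR adjusted p = 0.0325). That value rests on 15, 6 and 7 counts in SU_HX rats 2 to 4. On intron reads, described below, the same setting gave -0.08 (edgeR adjusted p = 0.812).

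Cacna1g encodes a T-type pore and lies on chromosome 10 at 82129506 to 82197848. Chrysin rats had 205, 185, 27.7 and 176 CPM, SU_HX rats had 84.0, 159, 107.5 and 250.5 CPM, and CTRL rats had 20.2, 25.1, 26.8 and 17.9 CPM. All Chrysin and SU_HX rats were above all CTRL rats, but Chrysin rat 3 exceeded the highest CTRL rat by little. SU_HX hearts averaged 150.3 ± 73.8 CPM and CTRL hearts 22.5 ± 4.16 CPM (SD, n = 4 each). The log2 fold change was 2.74 (SE 0.51, edgeR adjusted p = 0.00260), a level 6.67-fold higher, and it ranged from 2.37 to 2.94 over 23 alternatives. In the authors' deposited table the same comparison has a fold change of 6.66 with an adjusted p of 4.14e-07.

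Cacna1h, on the same chromosome, encodes the second T-type pore of the heart. Chrysin rats had 76.9, 31.1, 9.60 and 46.7 CPM, SU_HX rats had 31.3, 69.7, 74.8 and 48.8 CPM, and CTRL rats had 15.1, 30.1, 41.0 and 20.9 CPM. Chrysin rat 3 was the lowest library of all, and the SU_HX and CTRL ranges overlapped. The log2 fold change of SU_HX minus CTRL was 1.07 (SE 0.48, edgeR adjusted p = 0.108), so Cacna1h did not pass where Cacna1g did. Whether the 2 T-type genes differ in their change was not tested. Its call depended on a library of neither group: with Chrysin rat 3 left out of the shared fit, the log2 fold change was again 1.07, with an edgeR adjusted p of 0.0421.

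**Figure D1:**
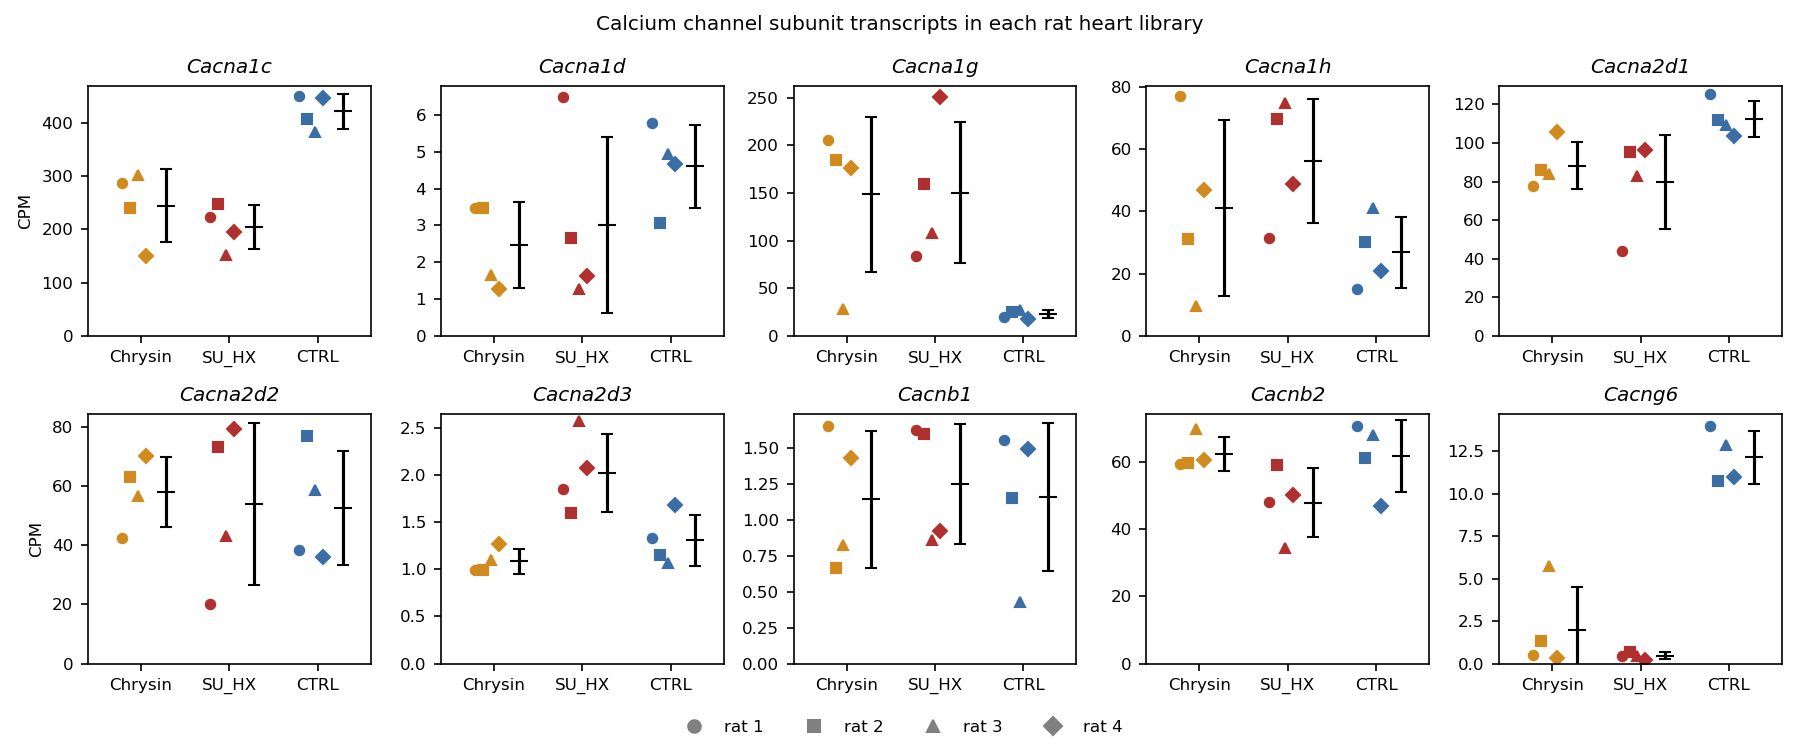
Level of each member in every library, in CPM on linear axes that start at 0, for Chrysin, SU_HX and CTRL. Coloured symbols are single libraries and the black marks are the mean and SD of 4 libraries (the lower SD bar of Cacng6 in Chrysin is cut at 0). Cacna1g lies at 17.9 to 26.8 CPM in CTRL and at 84.0 to 250.5 CPM in SU_HX, and Cacng6 lies at 0.231 to 0.709 CPM in SU_HX and at 10.7 to 14.0 CPM in CTRL.

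The mixture of pore transcripts can be read per kb of exon. Cacna1c, Cacna1d, Cacna1g and Cacna1h together came to 55.4 ± 13.3 CPM per kb in Chrysin, 52.5 ± 11.1 in SU_HX and 59.4 ± 2.20 in CTRL (SD, n = 4 each), and these means differed by less than the SD of Chrysin or SU_HX. The T-type share of that sum was 50.2%, 48.0%, 11.3% and 60.6% in Chrysin rats 1 to 4. It was 34.4%, 48.7%, 55.3% and 61.4% in SU_HX rats and 7.42%, 12.2%, 15.3% and 8.16% in CTRL rats. SU_HX and CTRL did not overlap, and Chrysin rat 3 lay inside the CTRL range while the other 3 Chrysin rats lay inside the SU_HX range. The level of Cacna1g per kb was 0.719 ± 0.468 of that of Cacna1c in Chrysin, 0.788 ± 0.401 in SU_HX and 0.0566 ± 0.0147 in CTRL. These shares restate the genes' own levels and were given no test of their own. Cacna1d was at most 0.662 CPM per kb in any library.

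**Figure D2:**
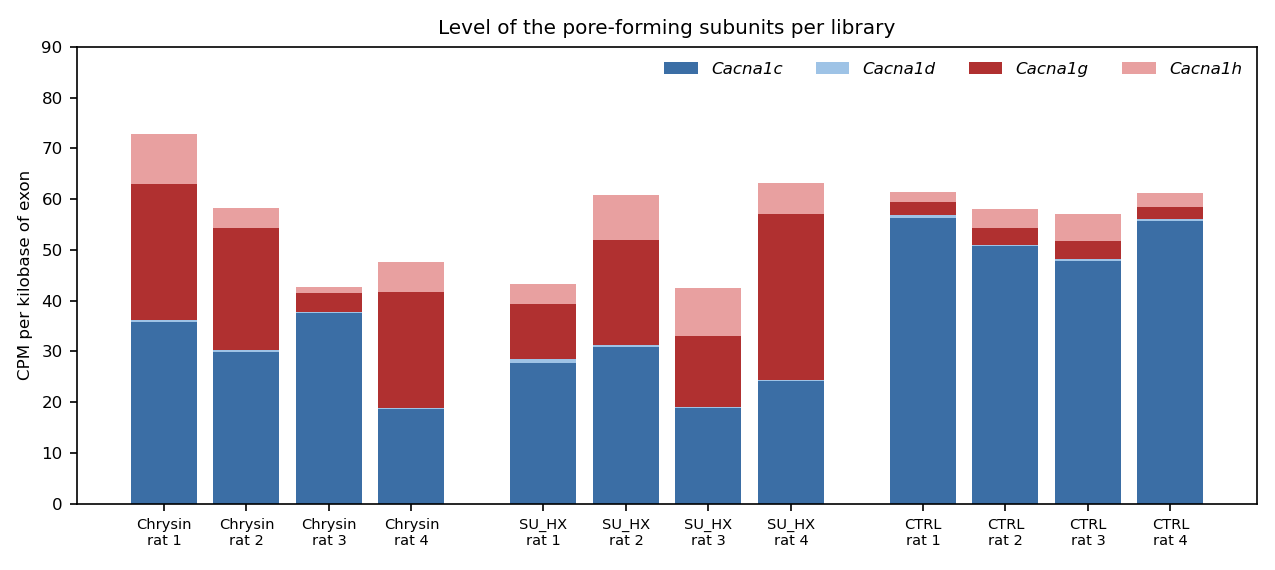
Stacked level of the 4 pore genes in each library, in CPM per kb of exon, with L-type genes in blue and T-type genes in red. The T-type part is 34.4% to 61.4% of the bar in SU_HX rats and 7.42% to 15.3% in CTRL rats, and in Chrysin rat 3 it is 11.3%.

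The α2δ genes gave no call in this comparison. Cacna2d1 encodes the main cardiac α2δ subunit, which is also the binding site of gabapentin. Chrysin rats had 77.5, 85.9, 83.7 and 105.8 CPM, SU_HX rats had 44.1, 95.5, 82.9 and 96.4 CPM, and CTRL rats had 125.5, 111.8, 109.1 and 103.5 CPM. Each SU_HX rat lay below each CTRL rat, by a small margin in rats 2 and 4. The log2 fold change was -0.50 (SE 0.21, edgeR adjusted p = 0.0867), and without SU_HX rat 2 it was -0.60 (edgeR adjusted p = 0.0497). Cacna2d2, a related subunit best known from brain, averaged 58.1 ± 11.8 CPM in Chrysin, 53.9 ± 27.5 CPM in SU_HX and 52.6 ± 19.2 CPM in CTRL. Its log2 fold change of SU_HX minus CTRL was 0.04, with a 95% interval of -0.73 to 0.81 (edgeR adjusted p = 0.945). SU_HX rat 1 was the lowest library for both genes, at 44.1 CPM for Cacna2d1 and 20.2 CPM for Cacna2d2. Cacna2d3, at 4 to 12 counts per library, was too low for the filter: it averaged 1.09 ± 0.133 CPM in Chrysin, 2.02 ± 0.414 CPM in SU_HX and 1.31 ± 0.270 CPM in CTRL. When tested without a filter, its log2 fold change of SU_HX minus CTRL was 0.59 (edgeR adjusted p = 0.295).

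Of the β genes, Cacnb2 encodes the main β subunit of heart muscle. Chrysin rats had 59.4, 59.8, 70.0 and 60.6 CPM, SU_HX rats had 48.0, 59.2, 34.5 and 50.1 CPM, and CTRL rats had 70.9, 61.4, 68.2 and 47.0 CPM. The SU_HX and CTRL ranges overlapped because CTRL rat 4 lay low. The log2 fold change of SU_HX minus CTRL was -0.36 (SE 0.17, edgeR adjusted p = 0.122), and without SU_HX rat 2 it was -0.49 (edgeR adjusted p = 0.0416). Cacnb1, the β subunit of skeletal muscle, had 2 to 10 counts per library and averaged 1.14 ± 0.474 CPM in Chrysin, 1.25 ± 0.416 CPM in SU_HX and 1.16 ± 0.516 CPM in CTRL. Without a filter its log2 fold change of SU_HX minus CTRL was 0.09 (95% interval -0.94 to 1.11, edgeR adjusted p = 0.949).

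Cacng6 encodes a γ subunit of striated muscle that has been described to reduce the T-type current of the channel that Cacna1g encodes. It lies on chromosome 1 at 64305438 to 64321241 and has 4 exons. Chrysin rats 1 to 4 had 3, 8, 21 and 2 counts, SU_HX rats had 2, 4, 2 and 1 counts, and CTRL rats had 63, 56, 60 and 59 counts. Scaled, the levels were 0.495, 1.32, 5.76 and 0.318 CPM in Chrysin, 0.464, 0.709, 0.428 and 0.231 CPM in SU_HX, and 14.0, 10.7, 12.9 and 11 CPM in CTRL. No Chrysin or SU_HX rat reached the CTRL range, and Chrysin rat 3 lay between it and the other Chrysin rats. In SU_HX against CTRL the log2 fold change was -4.61 (SE 0.69, 95% interval -6.10 to -3.13, edgeR adjusted p = 0.00114), a level 24.5-fold lower. It held in all 21 alternatives that gave it a value (-4.93 to -4.42), but the fold rests on 1 to 4 counts per SU_HX library. The authors' deposited table gives a fold change of -25.0, where the minus sign marks a fall, with an adjusted p of 6.34e-10.

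**Figure D3:**
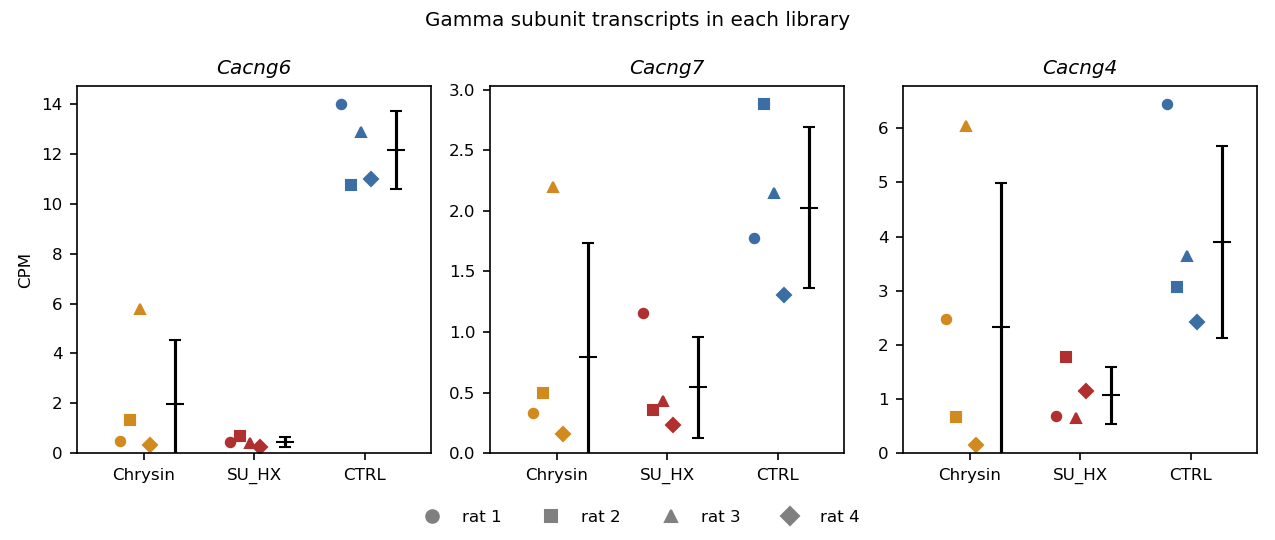
Level of Cacng6 and of other γ genes, Cacng7, which lies near it on chromosome 1, and Cacng4, in each library, in CPM on linear axes from 0, with the mean and SD of 4 libraries (lower SD bars in Chrysin are cut at 0). Chrysin rat 3 is the highest Chrysin library in each panel, at 5.76, 2.20 and 6.04 CPM.

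The remaining γ genes were looked at because Cacng6 lies in a run of related genes. Cacng8 and Cacng7 follow it on chromosome 1, within 64330106 to 64350338 and 64374603 to 64405149. Cacng8 had 2 counts over all 12 libraries. Cacng7 did not pass the filter: Chrysin rats had 2, 3, 8 and 1 counts, SU_HX rats had 5, 2, 2 and 1 counts, and CTRL rats had 8, 15, 10 and 7 counts. SU_HX and CTRL did not overlap for Cacng7, whose log2 fold change without a filter was -1.91 (edgeR adjusted p = 0.0525). The authors' deposited table gives Cacng7 a fold change of -3.76 with an adjusted p of 0.0350. Cacng4, which lies on chromosome 10 and encodes a regulator of AMPA receptors as well as a channel subunit, averaged 2.33 ± 2.66 CPM in Chrysin, 1.07 ± 0.524 CPM in SU_HX and 3.90 ± 1.77 CPM in CTRL. Its log2 fold change of SU_HX minus CTRL was -1.80 on gene counts (edgeR adjusted p = 0.0810), and -1.81 without Chrysin rat 3 (edgeR adjusted p = 0.0360). Cacng7 and Cacng4 were singled out after their values were seen.

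Among the 16 channel subunit genes outside the 10, 3 passed the filter. Of these, 2 rose in SU_HX against CTRL, where 16% of all genes tested rose. Cacna1a, the pore of the P/Q-type channel of nerve terminals, averaged 37.5 ± 6.24 CPM in Chrysin, 41.2 ± 22.3 CPM in SU_HX and 19.7 ± 4.36 CPM in CTRL. Its log2 fold change of SU_HX minus CTRL was 1.06 (SE 0.33, edgeR adjusted p = 0.0268). SU_HX rat 1 was its highest library at 67.5 CPM, and without that rat the log2 fold change was 0.71 (edgeR adjusted p = 0.0751). Cacnb3, a β subunit found in brain and smooth muscle, averaged 5.28 ± 1.56 CPM in Chrysin, 6.38 ± 0.483 CPM in SU_HX and 2.72 ± 1.04 CPM in CTRL. Its log2 fold change of SU_HX minus CTRL was 1.20 (SE 0.30, edgeR adjusted p = 0.00996). The skeletal muscle pore gene Cacna1s had 1 count in all libraries together.

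Intron reads, which come mostly from unspliced transcripts, gave a second readout of the same genes from reads that the gene counts do not hold. All 10 members passed the filter here, Cacng6 again only through the CTRL rats. The same 3 were called in SU_HX against CTRL, against 19.8% of 12242 genes tested. Cacna1c had a log2 fold change of -0.95 (edgeR adjusted p = 0.00383), Cacna1g of 2.45 (edgeR adjusted p = 0.00413) and Cacng6 of -3.45 (edgeR adjusted p = 0.00120). For Cacng6 the intron reads numbered 1, 2, 8 and 3 in Chrysin rats, 4, 3, 3 and 2 in SU_HX rats, and 30, 32, 38 and 33 in CTRL rats. Of the subunit genes outside the 10, Cacng4 fell on intron reads, by a log2 fold change of -2.20 (edgeR adjusted p = 0.00520). Cacna1a and Cacnb3, which rose on gene counts, did not pass on intron reads, with 0.35 (edgeR adjusted p = 0.465) and 0.54 (edgeR adjusted p = 0.478). Cacna1h had 1.30 (edgeR adjusted p = 0.0584). It passed without Chrysin rat 3 (edgeR adjusted p = 0.0280) and without SU_HX rat 1 (edgeR adjusted p = 0.0183).

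For Cacna2d1, which did not pass in either readout, the estimates differed in sign. Its log2 fold change of SU_HX minus CTRL was 0.17 on intron reads (95% interval -0.24 to 0.57, edgeR adjusted p = 0.572) and -0.50 on gene counts. It had 4.91, 4.26, 3.89 and 4.18 intron reads per exon read in Chrysin rats 1 to 4, 10.3, 4.08, 6.21 and 5.09 in SU_HX rats, and 3.76, 3.62, 3.34 and 3.63 in CTRL rats. All Chrysin and SU_HX rats were above all CTRL rats in that ratio, and the highest was SU_HX rat 1, the library richest in intron reads over all genes. Over all genes the intron share was 45.3% to 48.5% in Chrysin and 47.3% to 50% in CTRL. How often such a separation occurs over all genes was not counted, and the part of the library make-up in the ratio was not tested. For Cacnb2 the ratio was 11.0 to 14.0 in Chrysin, below the 14.9 to 22.6 of CTRL. The mean ratio of Cacna2d2 was 0.821 in Chrysin, 0.935 in SU_HX and 1.195 in CTRL. Its values overlapped, at 0.583 to 1.41 in Chrysin, 0.656 to 1.45 in SU_HX and 1.13 to 1.31 in CTRL. The mean ratio of Cacna1d was 6.12 in Chrysin, 6.98 in SU_HX and 3.70 in CTRL, the same direction as for Cacna2d1. Its values overlapped too, at 3.62 to 9 in Chrysin, 4.64 to 9.29 in SU_HX and 2.46 to 5.69 in CTRL. Cacnb2 had -0.50 on intron reads (edgeR adjusted p = 0.119), and without SU_HX rat 2 it had -0.77 (edgeR adjusted p = 0.0111).

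**Figure D4:**
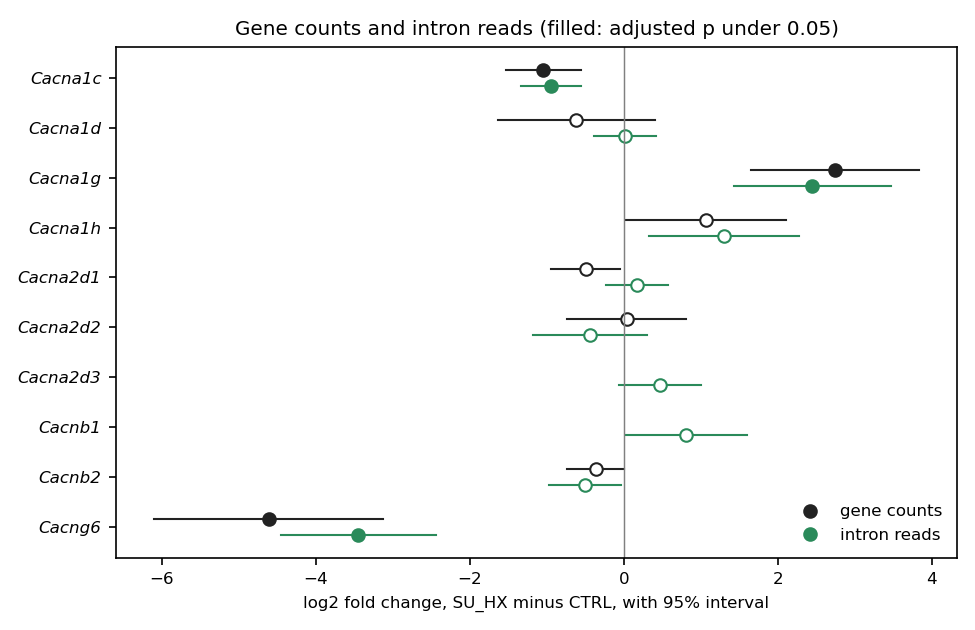
Log2 fold change of SU_HX minus CTRL for each member, with 95% intervals, on gene counts (black) and on intron reads (green). Filled symbols passed an edgeR adjusted p of 0.05. Cacna1g lies right of 0 and Cacna1c and Cacng6 lie left of 0 in both readouts, and Cacna2d1 lies at -0.50 on gene counts and 0.17 on intron reads.

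Chrysin rats were set against SU_HX rats to ask what chrysin did to these genes in diseased hearts. No member was called. Neither was any other of the 12304 genes with edgeR (0% called), while 8.14% had an unadjusted p under 0.05 and DESeq2 called 2 genes. Cacna1g had a log2 fold change of -0.01 with a 95% interval of -1.02 to 0.99, so the data allow a change of either sign up to about that size. Without Chrysin rat 3 it had 0.34 (edgeR adjusted p = 0.846). Cacna1c had 0.26 (95% interval -0.22 to 0.74, edgeR adjusted p = 0.637). Of the 8 members that passed the filter, Cacnb2 and Cacng6 had an unadjusted p under 0.05. Cacnb2 had a log2 fold change of 0.38 (SE 0.17, edgeR adjusted p = 0.557). All Chrysin rats lay above all SU_HX rats for it, at 59.4 to 70.0 CPM against 34.5 to 59.2 CPM, by a narrow margin. Such a separation, in either direction, was seen in 1 of the 8 members and in 2.3% of all genes tested. Without Chrysin rat 3, its highest library, Cacnb2 had 0.34 (edgeR adjusted p = 0.846). Cacng6 had 1.80 (SE 0.82, edgeR adjusted p = 0.557), and without Chrysin rat 3 it had 0.58 (edgeR adjusted p = 0.848). Cacna2d3, too low for the filter, had 0.990 to 1.27 CPM in Chrysin rats and 1.60 to 2.57 CPM in SU_HX rats, with no overlap. When tested without a filter its log2 fold change was -0.84 (edgeR adjusted p = 0.692). On intron reads no member passed either, with 0.00817% of genes called.

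Chrysin rats were also set against CTRL rats. The same 3 of 8 members were called, 1 higher and 2 lower, against 8.69% of all genes tested, with 4.72% higher and 3.97% lower. Of the 3, Cacng6 had passed the filter only through the CTRL rats, which favours a fall. Values in Chrysin and CTRL rats did not overlap in 3 of the 8 members tested, the same 3, against 23.4% of all genes tested. This comparison shares its CTRL libraries with SU_HX minus CTRL. Cacna1g had a log2 fold change of 2.72 (SE 0.51, edgeR adjusted p = 0.00950). Cacng6 had -2.81 (SE 0.57, edgeR adjusted p = 0.0129), and the call was lost without Chrysin rat 2 (-2.69, edgeR adjusted p = 0.0533). Cacna1c had -0.79 (SE 0.22, edgeR adjusted p = 0.0467), and 11 of 23 alternatives lost the call. Leaving out any CTRL rat, SU_HX rat 4, or Chrysin rat 1, 2 or 4 gave Cacna1c edgeR adjusted p values of 0.0616 to 0.136. Without Chrysin rat 3 the log2 fold changes were 3.08 for Cacna1g, -4.04 for Cacng6 and -0.89 for Cacna1c. On intron reads the 3 genes were called again, with 2.29 for Cacna1g (edgeR adjusted p = 0.0120), -3.25 for Cacng6 (edgeR adjusted p = 0.00417) and -0.80 for Cacna1c (edgeR adjusted p = 0.0159), against 11.8% of genes.

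**Figure D5:**
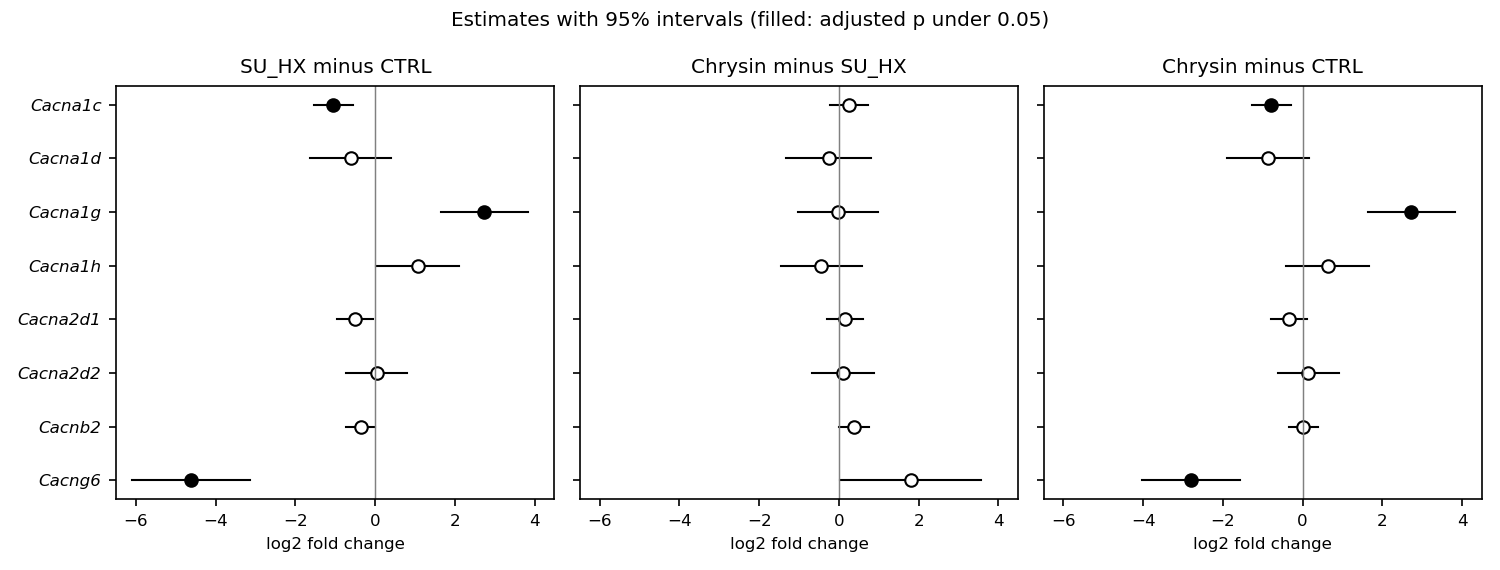
Log2 fold changes of the 8 members that passed the filter, with 95% intervals, in SU_HX minus CTRL, Chrysin minus SU_HX and Chrysin minus CTRL. Filled symbols passed an edgeR adjusted p of 0.05. No symbol is filled in Chrysin minus SU_HX, where the interval of Cacna1g runs from -1.02 to 0.99.

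The order of the members by CPM per kb was read in each group, as a description. In Chrysin hearts Cacna1c (30.5), Cacnb2 (27.4), Cacna2d1 (21.7), Cacna1g (19.3) and Cacna2d2 (12.3) led. Cacnb2 and Cacna2d1 were the only neighbours among these whose values did not overlap. Their margin was very narrow, with a lowest Cacnb2 value of 26.05 and a highest Cacna2d1 value of 26.03. In SU_HX hearts Cacna1c (25.5), Cacnb2 (21.03), Cacna2d1 (19.6), Cacna1g (19.6), Cacna2d2 (11.4) and Cacna1h (7.13) led, and each overlapped the next of these. Cacng6 was last there at 0.116. In CTRL hearts Cacna1c led at 52.6 with no overlap with Cacna2d1 (27.7), which overlapped Cacnb2 (27.1). Cacna2d2 followed at 11.1, then Cacna1h (3.40), Cacng6 (3.08) and Cacna1g (2.94), which overlapped one another in turn. Cacna1d, Cacna2d3 and Cacnb1 were at 0.470, 0.399 and 0.338 in CTRL.

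Genes that regulate these channels or work beside them were counted from a list. Of 20 regulators and partners tested, 3 rose and 7 fell in SU_HX against CTRL, where 16% of all genes tested rose and 14.7% fell. Gem and Rem1, small GTP-binding proteins that bind the β subunit and suppress calcium current, rose with log2 fold changes of 1.97 (edgeR adjusted p = 0.00484) and 0.91 (edgeR adjusted p = 0.0166). Gem had 8.12, 15.4, 11.1 and 20.8 CPM in SU_HX rats and 3.55, 4.22, 1.93 and 4.29 CPM in CTRL rats, with no overlap. Rrad, a relative of Gem, also suppresses the L-type channel, a brake that β-adrenergic stimulation relieves. Unlike Gem and Rem1, Rrad fell, by 1.21 on the log2 scale (edgeR adjusted p = 0.0339). However, SU_HX rat 2, at 193 CPM, lay inside the CTRL range of 186 to 265 CPM. Rrad was named beside its relatives, outside the limit of 4 genes per list and direction. Adrb1, the main β-adrenergic receptor of heart muscle, fell by 1.04 (edgeR adjusted p = 0.0146), and Camk2d, a kinase that facilitates L-type current, by 0.63 (edgeR adjusted p = 0.0139). Calm3, a calmodulin gene, rose by 0.43 (edgeR adjusted p = 0.0340). Nedd4l, a ubiquitin ligase, fell by 0.53 (edgeR adjusted p = 0.0210), and Akap7, an anchor of protein kinase A, by 0.89 (edgeR adjusted p = 0.0228). Over the 20 genes the median log2 fold change was -0.26.

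Downstream of the channel, 3 of 10 genes of excitation-contraction coupling fell in SU_HX and 0 rose. Of all genes tested, 14.7% fell and 16% rose. Only the share called in either direction is near that of all genes, 30.7%. Atp2a2, the calcium pump of the sarcoplasmic reticulum, fell by 1.77 on the log2 scale (edgeR adjusted p = 0.00754). Pln, its inhibitor, fell by 1.30 (edgeR adjusted p = 0.0149), and Trdn, which anchors the release channel complex, by 1.61 (edgeR adjusted p = 0.00346). The release channel gene Ryr2 had -0.69 (edgeR adjusted p = 0.0799). In Chrysin against SU_HX, 0 of the 20 and 0 of the 10 passed.

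Markers of the chambers and of other heart cells were counted in SU_HX against CTRL, where 16% of all genes tested rose and 14.7% fell. Of 5 genes tested from the list of atrial markers, 3 rose (Nppa, Myl4 and Myl1), though Myl1 is best known as a light chain of fast skeletal muscle. The atrial list summed to 235 to 7390.5 CPM in Chrysin, 1366 to 6208 CPM in SU_HX and 211 to 255 CPM in CTRL. In SU_HX rats Nppa, which ventricle under load also expresses, made up most of this. Chrysin rat 3 had 120 CPM of Nppa, against 2941 to 7084 CPM in the other Chrysin rats. The atrial light chain Myl7 was highest in SU_HX rat 2 (59.4 CPM) and in CTRL rats 4 and 1 (53.1 and 34.2 CPM). That SU_HX rat had 159 CPM of Cacna1g, in a group range of 84.0 to 250.5 CPM. Those CTRL rats had 17.9 and 20.2 CPM, in a group range of 17.9 to 26.8 CPM. Myl4 was ordered otherwise than Myl7, at 4.41, 42.9, 8.57 and 31.9 CPM in SU_HX rats 1 to 4. Cacna1g had 84.0, 159, 107.5 and 250.5 CPM in these rats. Whether either marker goes with Cacna1g was not tested. Of 5 nodal and conduction markers tested, 0 passed. Their sums were 95.2 to 150 CPM in Chrysin, 75.2 to 276 CPM in SU_HX and 87.7 to 118 CPM in CTRL, and Isl1 was at 0 in all libraries. Hcn4 alone had 7.655, 138, 58.3 and 231 CPM in SU_HX rats 1 to 4, the same order of rats as for Cacna1g. In CTRL rats Hcn4 had 59.3 to 85.2 CPM. Whether Hcn4 goes with Cacna1g was not tested either. Of 6 cardiomyocyte markers 2 fell (Tnni3 and Myh6). All 6 together summed to 15113 to 55963 CPM in Chrysin, 10381 to 22732 CPM in SU_HX and 56437 to 63902 CPM in CTRL, where Myh6 made up most of the sum. Of 6 ventricular markers 3 fell. Of 8 smooth muscle and pericyte markers 2 rose (Rgs5 and Pdgfrb), of 8 fibroblast markers 6 rose and of 6 macrophage markers 6 rose. All 4 lung epithelial markers tested rose, at low levels, with sums of 5.95 to 16.2 CPM in Chrysin, 12.7 to 61.9 CPM in SU_HX and 1.07 to 3.84 CPM in CTRL. Of 5 endothelial markers 1 rose, which is near the share of all genes. Of 3 skeletal muscle markers 2 rose and 1 fell, and of 3 neural and Schwann markers 0 passed. The part of these cell types in the members' changes was not tested.

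The genes most like Cacna1c and Cacna1g in pattern over the 12 libraries were found by the root mean square difference of centred log2 CPM among 9761 genes with a mean of at least 5 CPM. For Cacna1c they were Stk39 (0.102), Slc4a3 (0.144) and Lpl (0.150), where the median gene stood at 0.610. For Cacna1g they were Dusp15 (0.392), Abca5 (0.438) and Selplg (0.451), where the median gene stood at 1.44. Dusp15 averaged 29.9 CPM in Chrysin, 36.2 CPM in SU_HX and 4.84 CPM in CTRL, with 10.4 CPM in Chrysin rat 3. All points share the same 12 libraries and their scaling.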

How the data were processed

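Per the labels, 12 heart libraries in 3 groups of 4 were sequenced on an Illumina NextSeq 500. The authors deposited 1 table, with 32623 genes in rows and 310 columns. It holds, per the file headers, whole-number counts per gene and library, exon, intron and junction read counts, exon length, and the authors' own signed fold changes (scores, negative where the second group is lower) and adjusted p-values. The aligner, build and annotation: not given in the sources used here. Starts in the table count from 0, so 1 was added. Here the deposited counts were tested with edgeR 4.0.16 in R 4.3.3 (quasi-likelihood, robust, TMM, filterByExpr with a minimum count of 10, all 12 libraries, two-sided, Benjamini-Hochberg over all genes at 0.05), and unique intron reads likewise. The script was tested on simulated data. SE is the log2 fold change over the root of F. Members, lists and tests were chosen with earlier results of these data known. All members are described. Other listed genes are named where they passed in SU_HX minus CTRL or Chrysin minus SU_HX, at most 4 per list and direction with the smallest p, or where a result turns on them. Rrad, Ryr2, Myl7, Hcn4, Isl1, Cacna1s and the γ genes besides Cacng6 were named after their values were seen. Alternatives were DESeq2 1.42.0 size factors and tests, limma-voom 3.58.1, other filters, only the groups compared, a replicate block, leaving out libraries, exon-only unique reads, a fold of at least 2 and, chosen after seeing the data, junction reads. RefSeq promoters come from build GRCr8.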

Additional observations from a re-analysis of the deposited data

Results flagged for a closer look

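Of 33 sets of 4 libraries (each member, and the T-type share, in each group), 2 held a library far from the others, and chance flags about 1 in 20 such sets. Both were Chrysin rat 3. It had 27.7 CPM of Cacna1g, against 176 to 205 CPM in the other Chrysin rats, a gap of 0.835 of the group's range. It had 70.0 CPM of Cacnb2, against 59.4 to 60.6 CPM, with a gap of 0.890 of the range. Without it the log2 fold change of Chrysin minus SU_HX was 0.34 for both Cacna1g and Cacnb2.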

How the results depend on the processing

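The calls of Cacna1g and Cacng6 and the fall of Cacna1c in SU_HX against CTRL held under each alternative that gave them a value, on gene counts. On intron reads Cacna1g and Cacng6 did so too, and Cacna1c missed only a fold of at least 2. The count of members called in SU_HX minus CTRL was 3, was 3 to 5 with single libraries left out, and was 5 without SU_HX rat 1 and Chrysin rat 3 together. In Chrysin minus CTRL it was 3, and 1 to 3 with single libraries left out (1 without Chrysin rat 2). Genes called in SU_HX minus CTRL numbered 3776, 2486 to 4780 with single libraries left out, 2181 on junction reads and 1900 with a fold of at least 2. In Chrysin minus CTRL they numbered 1069, with DESeq2 1627, with only the groups compared 2599, with single libraries left out 303 to 2092, without both libraries 3564, on junction reads 571 and with a fold of at least 2 612. On intron reads they numbered 2429 in SU_HX minus CTRL (1122 with a fold of at least 2) and 1443 in Chrysin minus CTRL (515 to 2211 with single libraries left out, 2933 without both, 682 with a fold of at least 2). In Chrysin minus SU_HX DESeq2 called 2 genes, and on intron reads 1 gene was called, 0 to 2 with single libraries left out, and 0 with only the groups compared or without both libraries. The cause of these shifts was not tested beyond the fewer libraries, reads or genes each setting uses.

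Replicate numbers did not pair the libraries: same-numbered libraries correlated at -0.382 to 0.0745, and in 1 of 24 matches a library was closest to its own number. With the replicate block 624 genes were called in Chrysin minus CTRL, 0 on intron reads in Chrysin minus SU_HX, Cacna1c missed in Chrysin minus CTRL (edgeR adjusted p = 0.0778), and the log2 fold changes of SU_HX minus CTRL of Cacna2d2 and, on intron reads, Cacna1d were -0.06 and -0.01.

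Changes of sign occurred only in comparisons and readouts where the member was not called. On gene counts, Cacna2d2 in SU_HX minus CTRL was -0.08 with limma-voom, -0.00 on junction reads and -0.21 to 0.31 with single libraries left out. In Chrysin minus SU_HX with single libraries left out, Cacna1d was -0.47 to 0.41, Cacna1g -0.21 to 0.35, Cacna2d1 -0.05 to 0.25 and Cacna2d2 -0.17 to 0.35. There, without SU_HX rat 1 and Chrysin rat 3 together, Cacna1d was 0.52, Cacna1g 0.13, Cacna2d1 -0.03 and Cacna2d2 -0.15, and Cacna1g was 0.01 without a filter. In Chrysin minus CTRL Cacnb2 was -0.07 to 0.08, and -0.04 without both. On intron reads with single libraries left out, Cacna1d in SU_HX minus CTRL was -0.08 to 0.16 (-0.08 without both). In Chrysin minus SU_HX Cacna1g was -0.66 to 0.19, Cacna2d2 -0.24 to 0.34 (-0.16 without both), Cacnb2 -0.08 to 0.36 (-0.07 without both) and Cacng6 -0.77 to 0.57 (-0.78 without both, -0.26 with limma-voom). In Chrysin minus CTRL Cacna2d1 was -0.09 to 0.07 (0.04 without both) and Cacnb1 -0.39 to 0.09. Relative-log size factors moved no call of a member. With CPM in place of CPM per kb, 14 of 30 ranks of level moved. Cacna2d3 and Cacnb1, at 2 to 12 counts per library, Cacna1d, at 6 to 28, and Cacng6 in SU_HX are limited by depth.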
